A study of Mus musculus with 12 samples.

Results

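The 32 genes described here carry out cholesterol and fatty acid synthesis, control it, or handle the lipids it makes. They were chosen by name, as the rows of the deposited gene table for enzymes from the mevalonate branch to cholesterol (16 genes), the SREBP system (3), fatty acid synthesis (5), fatty acid desaturation (4) and lipid transport, storage and efflux (4). All 32 were found among the 55401 genes listed, and all 32 were among the 13792 genes that reached 10 normalized counts in 6 or more of the libraries and were tested. The members were all expressed, with mean levels between 71.1 (Abcg1) and 12326 (Scd2) normalized counts in control dishes.

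RNA came from airway organoids, hollow balls of airway epithelium grown from C57BL/6J mice in Cultrex matrix. In 6 dishes, 10 neighboring cells in each of 45 organoids were ablated with a femtosecond laser, and 6 untreated dishes were the control. All 12 cultures carried a lentiviral Histone2A-mCherry reporter under a p63 promoter, which is a basal cell promoter, so the controls differed from a wild-type culture too. All dishes stood in unsupplemented FluoroBrite DMEM from before the laser until harvest 4.5 h after ablation. Each ablation dish shares its number, passage, culture day and date with 1 control dish, which gives 6 pairs (1, 3, 4, 5, 6 and 7), cultured for 14, 20, 14, 15, 18 and 19 days. Pairs 1, 3 and 5 form library set 1 and pairs 4, 6 and 7 form library set 2, by their library numbers. The titles of controls 4, 6 and 7 contain the word ablation, while their treatment label is control, and they were taken as controls. Normalized counts summed to between 27600452 and 28247162 in the ablation dishes and to between 27297950 and 28504390 in the controls.

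Cholesterol is made from acetyl-CoA through mevalonate, isoprenoid units, squalene and lanosterol. The membrane-bound transcription factors SREBP1 and SREBP2 turn on this pathway and fatty acid synthesis when sterols are low. When sterols are high, INSIG proteins hold the SREBP escort SCAP in the endoplasmic reticulum, and INSIG1 is itself an SREBP target. Surplus sterol and fatty acid are esterified and stored in lipid droplets, which perilipin-2 coats, or leave the cell through ABC transporters that the oxysterol receptor LXR turns on. In the lung, lipid synthesis is best known from the surfactant-making alveolar type II cell.

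The libraries held the markers of airway basal and luminal cells at high levels, with Krt5 at 274709 ± 35158 and Krt19 at 88173 ± 9920 normalized counts in controls (SD, n = 6). Secretory and multiciliated genes were uneven, with Cyp2f2 at 50895 ± 12274 but Scgb1a1 at 3.97 ± 3.33 and Foxj1 at 11.9 ± 5.11 (SD, n = 6). Several defining markers of other cell types, lipid-rich ones among them, were at 0. Of 5 adipocyte markers, Adipoq was 0 in every library and the summed count never exceeded 3.00. Of 7 alveolar type II markers, Sftpc and Sftpb were 0 in every library, while Abca3, the most abundant, stood at 1126 ± 111 after ablation and 1124 ± 100 in the control (SD, n = 6). Of 7 leukocyte markers, Adgre1, Marco and Siglecf were 0 in every library, and the sum lay between 104 and 175 in each library, mostly from Cd68. Of 4 endothelial markers, Kdr and Cldn5 were 0 in every library. The 6 fibroblast markers summed to between 17.0 and 48.3, led by Pdgfra, with Tcf21 at 0. In the model with the library set, limma called 0 of the 24 markers with enough counts to be tested, and 1 passed in the paired model. That gene was the basal cell factor Trp63, at 9844 ± 1141 after ablation and 7505 ± 917 in the control (SD, n = 6). In bulk RNA, a change in the number of cells of a type and a change of RNA per cell cannot be told apart, and the part of the Trp63 difference in the results on lipid genes was not tested.

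Control 3, the untreated dish of the longest culture (day 20), stood apart among the controls. It had the highest level of the 6 controls for 20 of the 32 lipid genes, against 24.9% of all genes tested, and its ablation partner had the highest level of the ablation dishes for 16 of the 32. Values without pair 3 are therefore given beside several of the main results.

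In the RNA of whole organoids, most lipid genes stayed close to the control after ablation. The values average all cells of an organoid, so a change limited to cells near the damage would be diluted in them. The study expected mainly cells close to the damage to take part in early repair, and therefore small changes in the measured profiles. In the paired model Insig1 fell and Idi1 and Lss rose, while Hmgcs1, with a log2 fold change at −0.36, did not pass in either model. The members as a whole lay around 0, with 18 higher, 14 lower and a median log2 fold change of 0.033 (all genes tested: −0.0036, with 51.5% under 0). The test compared log2(normalized count + 1) with limma, with condition and library set in the model and Benjamini-Hochberg adjustment over all 13792 genes. It called 0 of the 32 members, where 0% of all genes were called. On the 9 libraries with recovered reads, edgeR and DESeq2 also called 0 members, where 0% and 0.0725% of all genes were called. Those libraries hold control 3 without its ablation partner, and these models held the library set and not the pair. At an unadjusted p under 0.05 there were 5 members, 3 higher (Idi1, Nsdhl and Lss) and 2 lower (Hmgcs1 and Insig1), where 7.85% of all genes reached that level (4.15% higher, 3.7% lower). With the pair in place of the library set, limma called 3 members, with Idi1 and Lss higher and Insig1 lower, where 1.09% of all genes were called (0.674% higher, 0.413% lower). An unadjusted p under 0.05 was then reached by 11 members (7 higher, 4 lower), against 17.6% of all genes (8.78% higher, 8.86% lower). No member had groups that did not overlap, as 0.457% of all genes did. With the plain eBayes step (no trend, not robust) in the paired model, limma called 0 members and 0 of all genes, with adjusted p of 0.121 for Idi1, 0.182 for Lss and 0.163 for Insig1. Without pair 3, the paired model called 5 members and 0.653% of all genes, and without pair 4 it called 0 members and 0.058% of all genes.

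**Figure D1:**
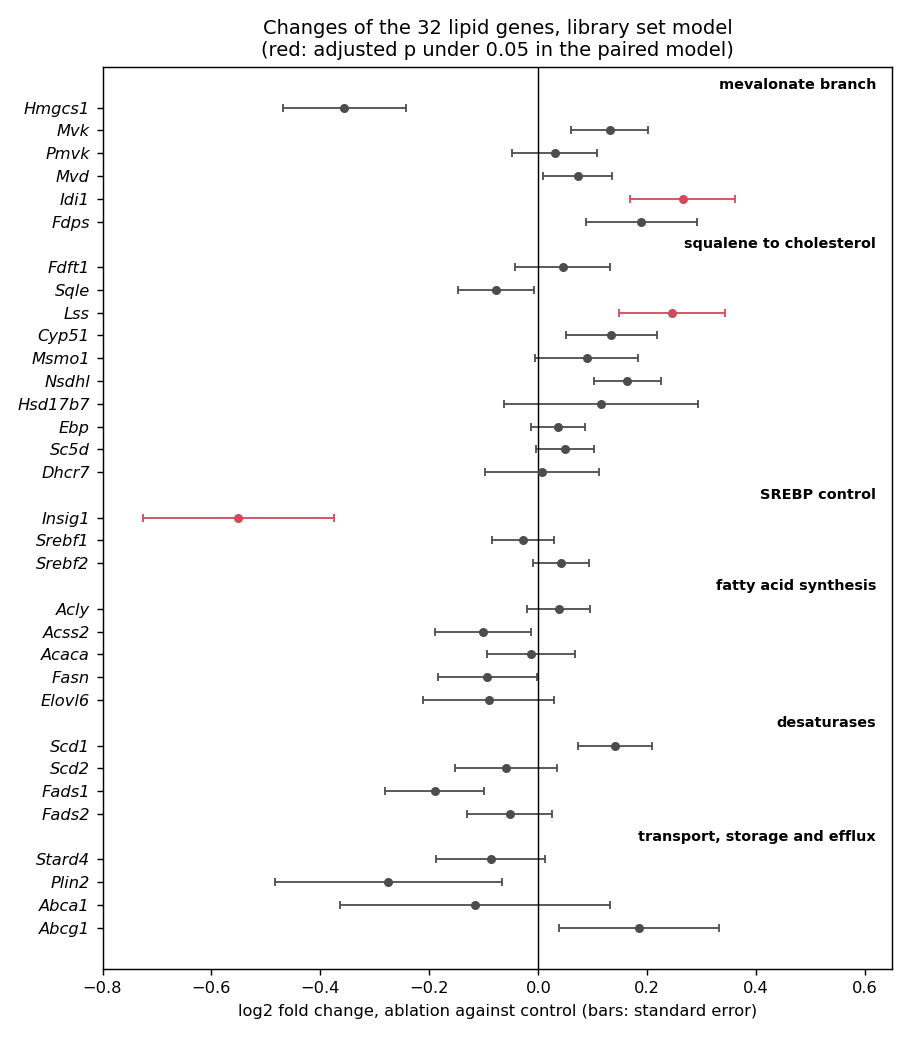
Log2 fold change of each of the 32 lipid genes (ablation against control, library set model, points) with its standard error (bars), in groups by role. Insig1 at −0.55, Idi1 at 0.27 and Lss at 0.25, in red, passed the threshold in the paired model, and most other members lie within 0.2 of 0.

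Insig1 encodes the sterol-responsive brake on SREBP processing. Its level ranged from 331 to 626 normalized counts over the ablation dishes (median 445) and from 466 to 968 over the control dishes (median 671). The ablation dish was lower in all 6 pairs, a direction shared by 4.63% of all genes, although the groups overlapped, with ablation 1 above controls 4 and 5. This was a log2 fold change of −0.55 with a standard error of 0.18, or 0.683-fold, the largest absolute value among the members. In limma's test with the library set the adjusted p was 0.537, and in the paired model it was 0.0245. The decrease was smallest in pair 1 at −0.09 and largest in pair 3 at −1.02 on the log2 scale. Without pair 3 the log2 fold change was −0.46 with an adjusted p of 0.0350 in limma's paired model. The paired call was lost without pair 4, 6 or 7, at adjusted p of 0.135, 0.0597 and 0.0651, where limma had 5 pairs each. Within library set 2 alone, where 0.79% of all genes were called, the log2 fold change was −0.64 (adjusted p = 0.0106, limma, paired), and within library set 1 alone, where 0.116% were called, it was −0.46 (adjusted p = 0.355).

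The transcripts of both SREBP genes had log2 fold changes near 0. Srebf2, the main regulator of sterol genes, ranged from 5945 to 7202 normalized counts over the ablation dishes (median 6759) and from 5836 to 7642 over the control dishes (median 6315). These ranges overlapped almost fully, with a log2 fold change of 0.04 and a standard error of 0.05 (adjusted p = 0.862, limma with the library set). The log2 fold change was 0.07 without pair 3 and 0.02 without pair 5. Srebf1, which serves fatty acid synthesis more, had a log2 fold change of −0.03 and a standard error of 0.06.

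The sequences before the start sites of the members with the lowest (Insig1 and Hmgcs1) and highest (Idi1 and Lss) log2 fold changes are shown so that the sterol regulatory element core can be compared among them. Each is the RefSeq window from 250 bases before to 50 bases after the start site in GRCm38.p6, on the plus strand, which takes in the region upstream of the gene and the beginning of its first exon, with a match to CACNCCAC on either strand in capitals.
Insig1, chr5:28071162-28071461: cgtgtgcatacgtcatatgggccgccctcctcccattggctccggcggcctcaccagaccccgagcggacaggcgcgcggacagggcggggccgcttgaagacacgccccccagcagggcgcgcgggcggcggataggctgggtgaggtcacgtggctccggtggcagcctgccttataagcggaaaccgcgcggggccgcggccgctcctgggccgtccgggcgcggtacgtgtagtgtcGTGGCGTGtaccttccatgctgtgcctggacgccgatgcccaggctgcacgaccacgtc
Hmgcs1, chr13:119690101-119690400: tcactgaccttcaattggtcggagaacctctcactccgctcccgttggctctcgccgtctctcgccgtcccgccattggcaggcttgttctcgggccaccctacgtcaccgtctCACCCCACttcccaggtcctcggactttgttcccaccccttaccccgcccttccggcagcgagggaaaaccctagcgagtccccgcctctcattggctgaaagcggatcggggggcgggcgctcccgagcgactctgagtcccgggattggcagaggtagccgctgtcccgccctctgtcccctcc
Idi1, chr13:8885356-8885655: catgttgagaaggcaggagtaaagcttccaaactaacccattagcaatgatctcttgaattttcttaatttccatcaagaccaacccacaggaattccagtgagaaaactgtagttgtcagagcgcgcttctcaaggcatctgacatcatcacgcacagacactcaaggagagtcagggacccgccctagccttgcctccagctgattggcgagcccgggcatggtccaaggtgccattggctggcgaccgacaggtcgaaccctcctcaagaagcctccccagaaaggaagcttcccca
Lss, chr10:76531355-76531654: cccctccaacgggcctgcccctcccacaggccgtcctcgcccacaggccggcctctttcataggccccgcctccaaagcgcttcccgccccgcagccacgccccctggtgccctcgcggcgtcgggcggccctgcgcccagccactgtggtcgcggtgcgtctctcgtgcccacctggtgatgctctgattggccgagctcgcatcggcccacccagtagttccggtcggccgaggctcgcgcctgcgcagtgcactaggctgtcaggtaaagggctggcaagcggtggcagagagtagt
Fdps, Fdft1, Sqle, Scd1, Scd2, Fads1, Stard4 and Abcg1 had no RefSeq window, so a match in them could not be looked for. The window of Acaca lay 65766 bases from the start of its gene model. Of the 24 members with such a window, Insig1 and Hmgcs1 were those with a match, at −9 and −136 from the start site. That is 8.3% of the members with a window, and 6.2% of all 32851 windows held a match. Outside the members, the window of Acat2, a sterol synthesis gene chosen after its values were seen, held 2 matches, at −181 and −53. The windows of Soat1, Ch25h, Pnpla3, Mgll, Lpin1, Ppargc1a, Pparg, Cpt1a, Arl4c, Nr1h3 and Rxra held none. The CCAAT box, CCAAT, bound by NF-Y, was present in 79.2% of the members' windows and 37.4% of all windows. The GC box, GGGCGG, bound by Sp1, was present in 79.2% and 35.7%, and the E-box, CACGTG, in 20.8% and 7.2%. Each member entered with a single window, while the shares over all windows took every window of a gene and were not limited to the genes tested. Shares over the genes tested were not computed, so these differences cannot be read as particular to lipid genes. The letters were searched on both strands, and a match is a description of the window, not a bound site.

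The mevalonate branch, from acetyl-CoA units to farnesyl diphosphate, held 1 gene that rose in the paired model, Idi1, and none that fell. Hmgcs1, the cytosolic HMG-CoA synthase at the entry of the pathway, ranged from 2394 to 3897 normalized counts over the ablation dishes (median 2872) and from 2920 to 4770 over the control dishes (median 3723). Ablation was lower in 5 of 6 pairs, pair 5 being the exception at 0.02 on the log2 scale, and the groups overlapped. The difference was −0.36 on the log2 scale with a standard error of 0.11, or 0.781-fold. It did not pass the threshold with the library set (adjusted p = 0.537, limma) or in the paired model (adjusted p = 0.0513). Without pair 3 the log2 fold change was −0.31 with an adjusted p of 0.105 in the paired model, and without pair 5 it was −0.43 with an adjusted p of 0.0179. Within library set 2 alone it was −0.47 (adjusted p = 0.0111, limma, paired), and within library set 1 alone −0.24 (adjusted p = 0.421).

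Idi1 encodes the isomerase that makes dimethylallyl diphosphate, and its change after ablation varied least between pairs of all members. Its level ranged from 855 to 1214 normalized counts over the ablation dishes (median 1035) and from 726 to 1011 over the control dishes (median 840). The groups overlapped, but within each of the 6 pairs the ablation dish was higher, by 0.23 to 0.35 on the log2 scale, and 5.17% of all genes were higher in all 6 pairs. On average the difference was 0.27 on the log2 scale with a standard error of 0.10, or 1.20-fold. Limma gave an adjusted p of 0.586 with the library set and 0.0127 in the paired model. The paired call held without pair 3 (adjusted p = 0.0343, limma) and was lost without pair 4 (adjusted p = 0.0581).

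Fdps, the farnesyl diphosphate synthase, was also higher in all 6 pairs. Its level ranged from 699 to 1072 normalized counts over the ablation dishes (median 915) and from 660 to 909 over the control dishes (median 782), with 3 of the ablation dishes above every control. Fdps thus had a log2 fold change of 0.19 with a standard error of 0.10 (paired adjusted p = 0.119, limma). Mvd, the mevalonate diphosphate decarboxylase, was higher in all 6 pairs as well, by 0.0036 to 0.15 on the log2 scale. The kinases Mvk and Pmvk had log2 fold changes of 0.13 and 0.03. Of the 6 genes of this branch, 1 (Idi1) was called in the paired model, and the median log2 fold change was 0.10.

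**Figure D2:**
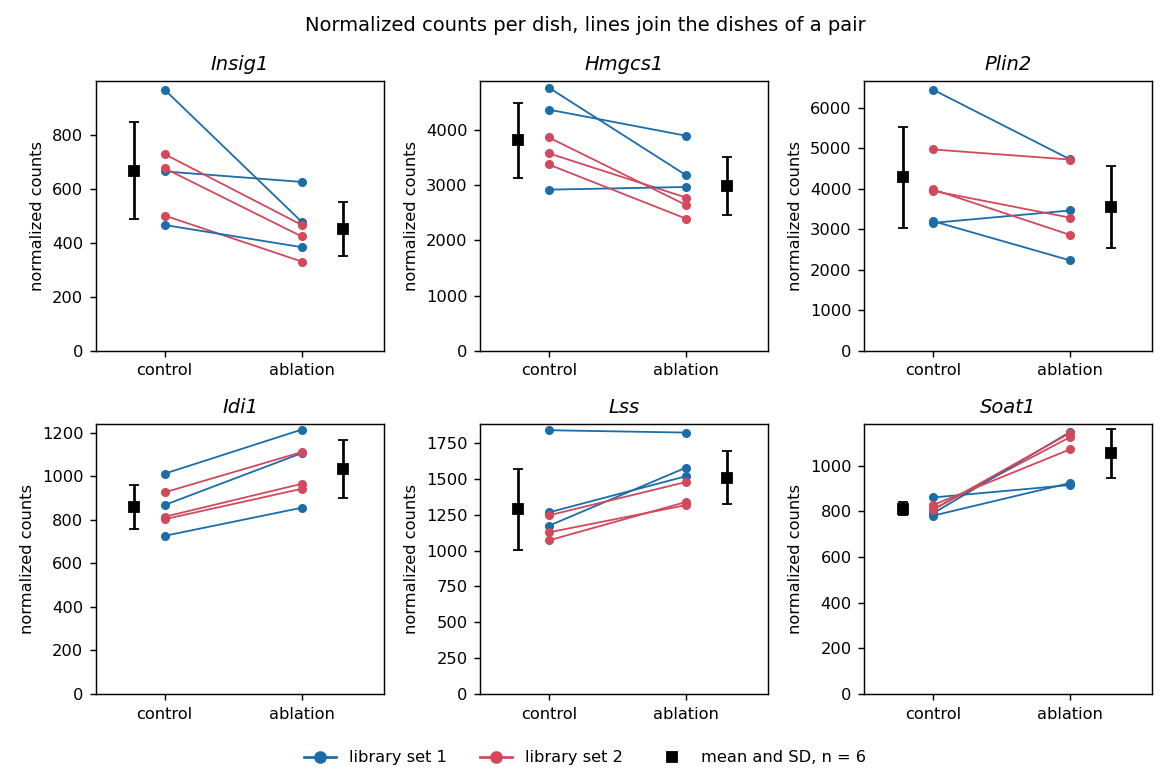
Normalized counts in each dish for 5 lipid genes and Soat1, with lines joining the dishes of a pair in the colour of their library set, and squares and bars for group mean and SD (n = 6). The Insig1 line falls in every pair and the Idi1 line rises in every pair, and the Soat1 control dishes, between 781 and 861, all lie under the ablation dishes, between 915 and 1148.

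Of the 10 genes from squalene to cholesterol, 1 (Lss) was called in the paired model. Log2 fold changes were above 0 for 9 of the 10, with a median of 0.07, where 48.5% of all genes were above 0. Within single pairs between 5 and 9 of the 10 were higher after ablation, and the log2 fold changes of Fdft1, Msmo1, Sc5d and Dhcr7 turned sign under at least 1 alternative. Lss, the lanosterol synthase that closes the sterol rings, ranged from 1317 to 1823 normalized counts over the ablation dishes (median 1499) and from 1071 to 1840 over the control dishes (median 1209). The groups overlapped through control 3, the highest of all dishes, and the other 5 controls lay at or under 1266, below every ablation dish. The log2 fold change was 0.25 with a standard error of 0.10, or 1.19-fold, with ablation higher in 5 of 6 pairs and pair 3 at −0.01. Limma gave an adjusted p of 0.614 with the library set and 0.0444 in the paired model. Without pair 3 the log2 fold change was 0.30 (paired adjusted p = 0.0228, limma). The paired call was lost when any other single pair was left out, at adjusted p from 0.0675 without pair 6 to 0.161 without pair 4.

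Cyp51, the lanosterol demethylase, was the most abundant of these enzymes. It ranged from 5533 to 7833 normalized counts over the ablation dishes (median 7336) and from 5790 to 6981 over the control dishes (median 6472). Ablation 3, 4, 5 and 7 lay above all controls, while ablation 1 was the lowest of all dishes. The log2 fold change was 0.13 with a standard error of 0.08 (paired adjusted p = 0.163, limma). Nsdhl, a sterol dehydrogenase of C4 demethylation, was higher in all 6 pairs, by 0.03 to 0.43 on the log2 scale, with a log2 fold change of 0.16 (paired adjusted p = 0.158, limma). Msmo1 and Hsd17b7, of the same demethylation complex, had log2 fold changes of 0.09 and 0.12. Msmo1 was at 0.05 without pair 4, and Hsd17b7 was at 0.04 without pair 5 and 0.18 without pair 6. For Hsd17b7 the single pairs ranged from −0.21 to 0.48. Sqle, the squalene epoxidase and a rate-limiting step, was the exception of the role at −0.08. Its value was −0.045 without pair 3 and −0.11 without pair 5. The late enzymes Ebp, Sc5d and Dhcr7 and the squalene synthase Fdft1 lay between 0.01 and 0.05.

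**Figure D3:**
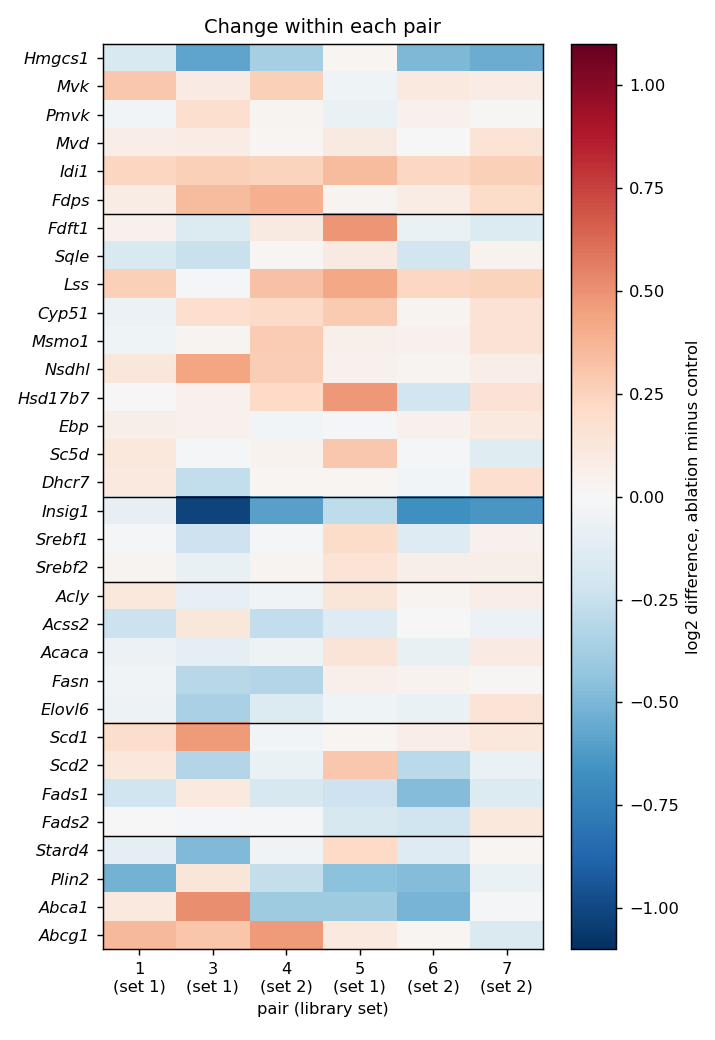
Log2 difference between the ablation and control dish of each pair (columns, with the library set) for the 32 lipid genes (rows, in groups by role), red for higher and blue for lower after ablation. Insig1 is blue and Idi1 is red in all 6 columns, and the fatty acid synthesis genes change colour between pairs.

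Fatty acid synthesis genes did not pass the test, with 0 of 5 called in either model and 0 of 5 at an unadjusted p under 0.05. Fasn, the fatty acid synthase, was the most abundant and ranged from 4138 to 6459 normalized counts over the ablation dishes (median 5512) and from 4682 to 7997 over the control dishes (median 5483). The medians nearly coincided, and control 3 was the highest dish by far. Fasn had a log2 fold change of −0.09 with a standard error of 0.09, and of −0.05 without pair 3 or without pair 4. The citrate lyase Acly and the carboxylase Acaca, which feed Fasn, had log2 fold changes of 0.04 and −0.01. The acetyl-CoA synthetase Acss2 and the elongase Elovl6 were at −0.10 and −0.09, each lower in 5 of 6 pairs. Elovl6 moved to −0.04 without pair 3 and to −0.14 without pair 7. Acss2 moved to −0.07 without pair 4 and to −0.15 without pair 3.

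The 4 desaturases were split in direction, and 0 of 4 were called in either model. Scd2, a stearoyl-CoA desaturase and the most abundant member of the whole set, ranged from 9662 to 13616 normalized counts over the ablation dishes (median 12122) and from 9872 to 15123 over the control dishes (median 12234). Its log2 fold change was −0.06 with a standard error of 0.09, while that of its neighboring paralog Scd1 was 0.14 with a standard error of 0.07, higher in 5 of 6 pairs. Without pair 3 these values were −0.0069 for Scd2 and 0.075 for Scd1. Fads1, the delta-5 desaturase of polyunsaturated fatty acids, ranged from 2351 to 3557 normalized counts over the ablation dishes (median 2646) and from 2733 to 3509 over the control dishes (median 3040). It was lower in 5 of 6 pairs, and ablation 3, the exception, was the highest of all dishes. The log2 fold change was −0.19 with a standard error of 0.09 (paired adjusted p = 0.128, limma). Without pair 3 it was −0.25 with a paired adjusted p of 0.0497. Fads2, the delta-6 desaturase, had a log2 fold change of −0.05.

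Among the genes of transport, storage and efflux, Plin2 was the most abundant and the one with the lowest log2 fold change. Plin2, the perilipin that coats lipid droplets, ranged from 2232 to 4729 normalized counts over the ablation dishes (median 3377) and from 3159 to 6454 over the control dishes (median 3969). The spread between dishes was wide, since controls 1 and 3 were lower than 4 of the ablation dishes. Within pairs the ablation dish was lower in 5 of 6, from −0.07 in pair 7 to −0.52 in pair 1, and higher by 0.13 in pair 3. The log2 fold change was −0.28 with a standard error of 0.21, and limma gave an adjusted p of 0.775 with the library set and 0.137 in the paired model. Without pair 3 it was −0.36 with a paired adjusted p of 0.0256. The sterol carrier Stard4 had a log2 fold change of −0.09, which was −0.0074 without pair 3. The LXR targets Abca1 and Abcg1, which export cholesterol, had log2 fold changes of −0.12 and 0.18 with standard errors of 0.25 and 0.15. Without pair 3 that of Abca1 was −0.24, while it was −0.06 without pair 4 or pair 5 and −0.04 without pair 6. Abca1 ranged from 76.8 to 219 normalized counts in the controls and from 110 to 223 after ablation, and 0 of these 4 genes were called in either model.

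Other genes of the same pathways were taken from 4 lists. Of 23 further sterol and SREBP genes, 22 were tested and 12 were higher and 10 lower, with a median log2 fold change of 0.0067. None was called with the library set, and 1, Soat1, was called in the paired model. At an unadjusted p under 0.05 there were 4 with the library set and 6 in the paired model (limma), where the shares of all genes were 7.85% and 17.6%. Soat1, the acyltransferase that makes cholesterol esters for storage, ranged from 915 to 1148 normalized counts over the ablation dishes (median 1098) and from 781 to 861 over the control dishes (median 808). Its groups did not overlap. The log2 fold change was 0.37 with a standard error of 0.06, or 1.29-fold, and limma gave an adjusted p of 0.166 with the library set and 0.0137 in the paired model. The paired call was lost without pair 4 (adjusted p = 0.0807) and with the plain eBayes step (adjusted p = 0.133), and DESeq2 on the 9 libraries with recovered reads gave an adjusted p of 0.0120 where edgeR gave 0.803. Ch25h, the cholesterol 25-hydroxylase, was expressed at the limit of the count minimum, with a median of 16.2 normalized counts (4.94 to 21.6) in the ablation dishes and of 8.53 (6.70 to 16.4) in the controls. Its log2 fold change of 0.32, with a standard error of 0.30, did not pass (adjusted p = 0.817 with the library set and 0.605 in the paired model, limma). The single pairs ran from −0.74 in pair 6 to 1.55 in pair 5, and the value was 0.08 without pair 5. Of the 22 tested, 6 were higher and 1 was lower in all 6 pairs, against 5.17% and 4.63% of all genes. Named after their values were seen, Acat2, Insig2, Ggps1 and Lbr were higher in all 6 pairs, with log2 fold changes between 0.14 and 0.23. They did not pass the paired test. Hsd17b12, at 0.06, was also higher in all 6 pairs, and Dhdds, at −0.09, was lower in all 6.

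Of 39 further genes of fatty acid, triglyceride and lipid droplet metabolism, 31 were tested and 18 were higher and 13 lower. None was called in either model (limma, 4 at an unadjusted p under 0.05 with the library set and 10 in the paired model, where the shares of all genes were 7.85% and 17.6%). The 3 with the largest absolute log2 fold changes were the lipase genes Pnpla3 at 0.80 and Mgll at 0.39 and the phosphatidate phosphatase Lpin1 at −0.32. Pnpla3 was scarce, with 11.5 ± 3.60 normalized counts after ablation and 6.91 ± 4.16 in the control (SD, n = 6). Mgll stood at 203 ± 52.9 after ablation and 156 ± 46.9 in the control, and Lpin1 at 164 ± 51.8 and 201 ± 35.6 (SD, n = 6). The values were uneven between the library sets, with log2 fold changes in sets 1 and 2 of 1.57 and 0.02 for Pnpla3, 0.66 and 0.13 for Mgll and −0.12 and −0.52 for Lpin1, which was at −0.21 without pair 4. The interaction with library set, with the pair in the model, had an adjusted p of 0.603, 0.531 and 0.663 for these genes (limma, unadjusted 0.0225, 0.00816 and 0.0756). The perilipins of fat cells and muscle, Plin1, Plin4 and Plin5, had means under 0.334 normalized counts in both groups.

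Of 21 genes of fatty acid oxidation and PPAR control, 16 were tested, 9 were higher and 7 lower, and none was called in either model (limma, 0 at an unadjusted p under 0.05 with the library set and 4 in the paired model, beside the same shares of all genes). Cpt1a, the gate of mitochondrial fatty acid import, was higher in all 6 pairs with a log2 fold change of 0.21 (paired adjusted p = 0.0688, limma), 0.31 in library set 1 and 0.11 in set 2. The coactivator Ppargc1a was at 0.47, with 0.78 in library set 1 and 0.17 in set 2. It was scarce, at 25.3 ± 10.3 normalized counts after ablation and 17.5 ± 6.29 in the control (SD, n = 6). The adipogenic receptor Pparg was at −0.26, and at −0.17 without pair 1. Of 14 further LXR genes, 11 were tested, 7 were higher and 4 lower, and limma called none with the library set (0 at an unadjusted p under 0.05) and 1, Arl4c, in the paired model (2 at an unadjusted p under 0.05). Arl4c, a small GTPase and LXR target, ranged from 3008 to 4557 normalized counts over the ablation dishes (median 4078) and from 2844 to 4311 over the control dishes (median 3193). It was higher in all 6 pairs, the groups overlapped, and the log2 fold change was 0.24 with a standard error of 0.11 (adjusted p = 0.632 with the library set and 0.0444 in the paired model, limma). Within library sets 1 and 2 the log2 fold changes of Arl4c were 0.12 and 0.37 (interaction adjusted p = 0.487, unadjusted 0.00705, limma). Among the 6 fits that left out a pair, the call held without pair 1 (adjusted p = 0.0353) and was lost in the others, at adjusted p from 0.0577 without pair 5 to 0.180 without pair 4. Nr1h3, which encodes LXR alpha, was near the count minimum, at 9.27 ± 3.03 after ablation and 12.7 ± 4.50 in the control (SD, n = 6), and its partner Rxra had a log2 fold change of −0.13.

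The untreated dishes also differed among themselves. The median SD of the log2 values over the 6 control dishes was 0.17 for the lipid genes and 0.16 for all genes tested. The median absolute log2 fold change after ablation was 0.09 for the lipid genes and 0.07 for all genes. These are unlike measures, since the SD is over single dishes and includes differences between pairs. The fold change is a difference between group means. Among the controls, Abca1 had the widest range at 1.5 on the log2 scale, followed by Insig1 at 1.05 and Plin2 at 1.03. Control 3 held the highest Insig1, Fasn, Elovl6, Lss and Stard4 of the controls and the lowest Abca1 and Plin2. Control 5, with the lowest Insig1 and Hmgcs1 of the controls, held the highest Plin2. Control 3 is the one untreated dish of day 20, so culture day and dish cannot be told apart.

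**Figure D4:**
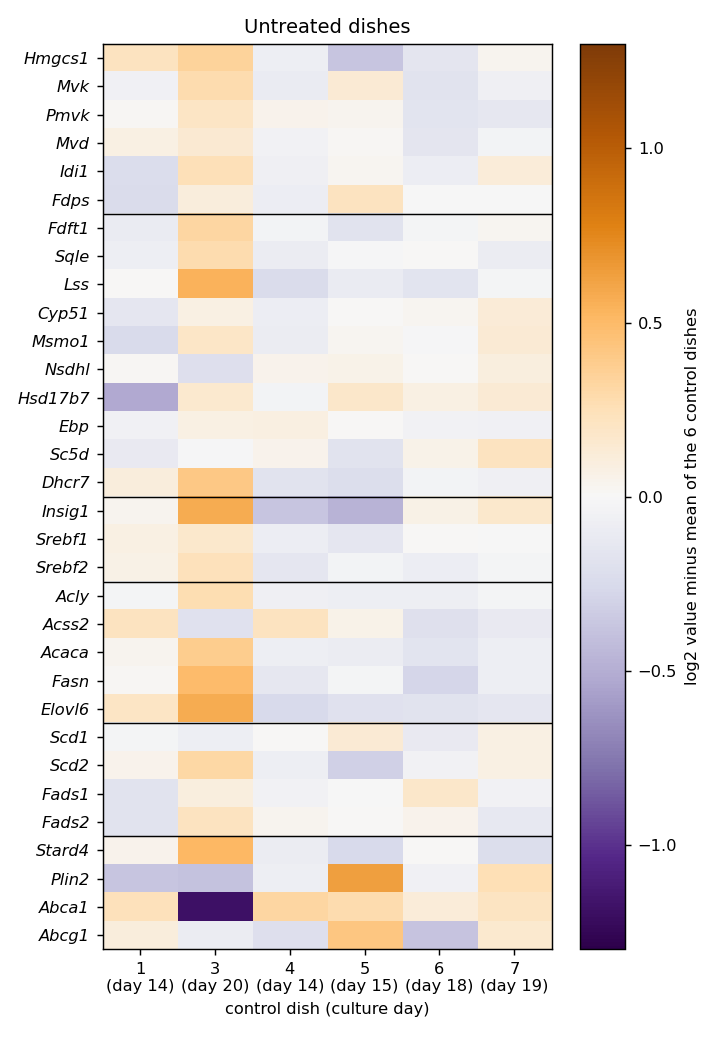
Log2 value of each lipid gene (rows, in groups by role) in each untreated dish minus the mean of the 6 control dishes (columns, with culture day), orange for above and purple for below. The column of control 3 is orange for most genes of synthesis and dark purple for Abca1, which had 76.8 normalized counts there against 191 to 219 in the other controls.

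Between the library sets, 25 of 32 lipid genes were lower and 7 higher in set 2, with a median log2 difference of −0.11 (all genes: −0.0030). The test compared the means of 3 pairs with 3 pairs in limma and called 0 of the 32 members, with 0% of all genes called, and 3 members (Mvk, Srebf2 and Fasn, all lower in set 2) reached an unadjusted p under 0.05, against 9.38% of all genes (4.31% lower in set 2). Fasn averaged 6189 normalized counts in set 1 and 4936 in set 2, a log2 difference of −0.32. Without pair 3, 21 of the 32 were lower and 11 higher in set 2, with a median of −0.06, limma called 0 members and 0% of all genes, and 1 member (Fasn, at −0.21) reached an unadjusted p under 0.05, against 7.44% of all genes. The sets overlap in passage, as pairs 4 and 5 share one, while pairs 6 and 7 of set 2 are of a later passage than every pair of set 1. The part of passage in the difference between the sets was not tested. Whether the change after ablation differed between the sets was tested with an interaction term and the pair in the model. Limma called 0 of 32 members, with 0.00725% of all genes called, and 0 members had an unadjusted p under 0.05, against 7.88% of all genes. The within-set log2 fold changes of the genes called in the paired model were 0.28 and 0.25 for Idi1, 0.23 and 0.26 for Lss and −0.46 and −0.64 for Insig1, in sets 1 and 2.

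Per length of the gene model, the lipid genes spanned a wide range in the untreated dishes. The deposited length is the union of all annotated exons, so genes with many rare exons, such as Lss (10787 bases), come out low. Scd2 led with 2256 ± 317 normalized counts per kilobase, followed by Fads2 with 1538 ± 149, Cyp51 with 1454 ± 100 and Plin2 with 1221 ± 356 (SD, n = 6). Fads2, Cyp51 and Plin2 did not differ beyond the larger SD of the genes compared. The lowest were the exporters, Abca1 with 17.9 ± 5.20 and Abcg1 with 9.74 ± 1.98 normalized counts per kilobase (SD, n = 6). Insig1, at 216 ± 58.3 per kilobase, lay between Idi1 at 245 ± 28.7 and Mvd at 206 ± 14.8, and did not differ from either beyond its SD. Both SREBP genes, Srebf2 at 903 ± 89.3 and Srebf1 at 629 ± 49.5 per kilobase, were above Insig1.

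**Figure D5:**
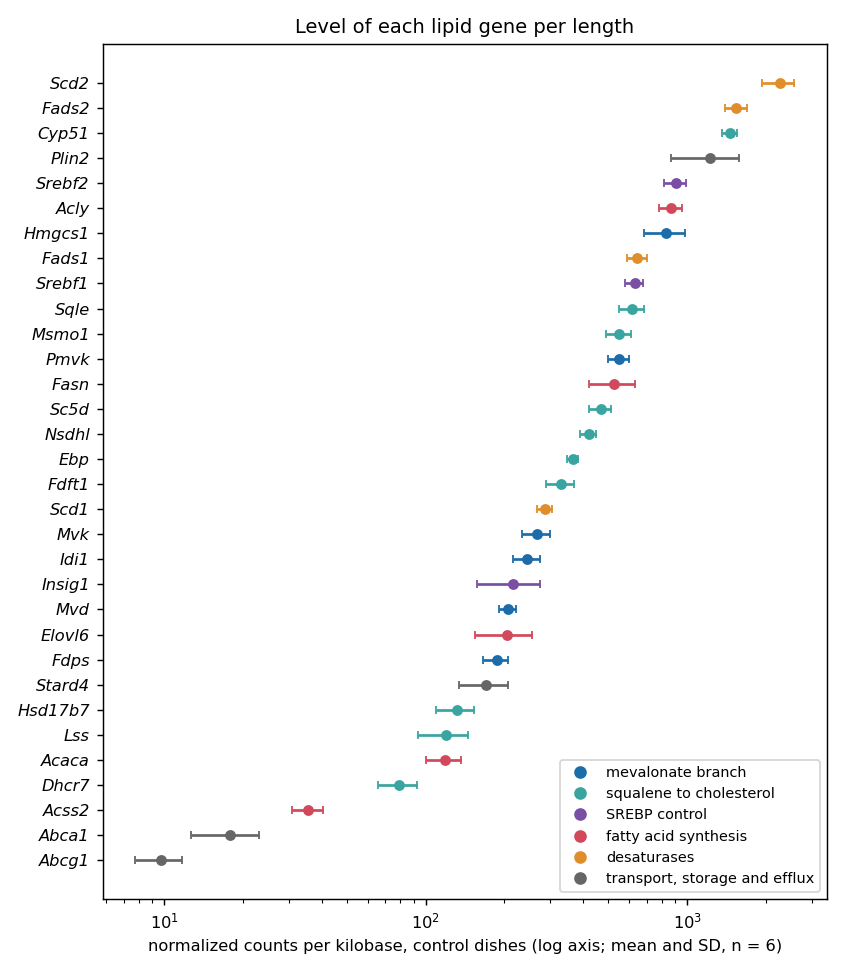
Normalized counts per kilobase of gene model in the control dishes (log axis) for each lipid gene, as mean (points) and SD (bars) over 6 dishes, coloured by role. The desaturases Scd2 and Fads2 lie at the top, with 2256 and 1538 per kilobase, and the exporters Abca1 and Abcg1 at the bottom, with 17.9 and 9.74.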

How the data were processed

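RNA of 12 airway organoid dishes was sequenced by the study as stranded poly(A) libraries. Reads were aligned and counted by the authors with nf-core/rnaseq against GENCODE GRCm38.p6, and the deposited signal values are their DESeq2 normalized counts, which are read counts divided by 1 size factor per library. The deposited table also holds the authors' log2 fold changes, standard errors, Wald statistics and p-values, none of which were used. The length column of the deposited table (other values) is the exon union of each gene.

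Normalized values of 9 libraries were whole multiples of a step that gave back read counts, between 23631212 and 29775699 per library. For ablation 3, ablation 4 and control 4 the steps lay too near 1 to be accepted, and count models were run on the other 9 libraries alone, as alternatives. Depth limits the precision of genes near the count minimum.

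Groups were taken from the treatment labels. Genes reaching 10 normalized counts in 6 or more libraries (13792 of 28534 with any read) were tested on log2(normalized count + 1) in R 4.3.3 with limma 3.58.1, with trended and robust eBayes and Benjamini-Hochberg adjustment at 0.05. The methods name a batch without defining it, and the library set was used. The paired model (replicate block) replaces it with the pair. Deviations of same-numbered dishes from their group means within library sets correlated with r = 0.58, 0.41, 0.25, 0.48, 0.20 and 0.27 for pairs 1, 3, 4, 5, 6 and 7, across genes, which are not independent replicates. Nothing in the labels says that pairs are separate animals. With the library set, p-values thus measure the spread between these dishes, and in the paired model the spread of the differences within these pairs. For the 17 genes of the other lists below that minimum, two-sided exact permutation tests of the group means gave p of 0.182 or more. edgeR 4.0.16 and DESeq2 1.42.0 were alternatives.

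The members, the lists, the markers and the motifs were chosen with earlier results of these data known. Full values are given for members past the threshold in either model, the 6 members with the lowest paired p and the most abundant member of each role, and for the genes of other lists past the paired threshold and the 3 with the largest absolute log2 fold change in each list. Of the genes this rule selects, 1 is not reported here. Promoter windows, for 24 of 32 members, and start sites are from RefSeq (GRCm38.p6).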

Additional observations from a re-analysis of the deposited data

Results flagged for a closer look

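In 64 groups of 6 dishes (32 genes in 2 groups), a dish lay far from the other 5 of its group in 11 cases, by the gap to its neighbor as a share of the whole range. Chance gives such a gap in about 1 in 20 groups, and the genes share dishes, so the cases are not independent. Control 3 accounted for 8 of the 11. It was the highest control for Sqle (4152 normalized counts, next dish 3422), Lss (1840, next 1266), Acly (5536, next 4502), Acaca (2615, next 2054), Fasn (7997, next 5723) and Stard4 (1333, next 965). It was the lowest control for Nsdhl (1035, next 1199) and Abca1 (76.8, next 191). Its ablation partner, ablation 3, was the highest ablation dish for Pmvk (1218, next 986) and Fads1 (3557, next 2699). Control 1 was the lowest control for Hsd17b7 (461, next 644).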

How the results depend on the processing

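No member was called with the library set under a pseudocount of 5, a minimum of 50, quantile normalization, the plain eBayes step, condition alone, any left-out pair or the test of every gene with any count. With the replicate block, the genes called went from 0 to 150 of all genes and from 0 to 3 members. Other counts of all genes were 3 with every gene with any count, 16 and 109 in library sets 1 and 2 alone, 356 and 167 for the block with every gene or quantile normalization, 176, 90, 8, 77, 106 and 140 with the block and pair 1, 3, 4, 5, 6 or 7 left out, and 10 by DESeq2. Members called were 2 in library set 2 alone, 4 for the block with every gene, 3 with quantile normalization and 0 to 5 with a pair left out, the 0 without pair 4. The block with the plain eBayes step called 0 genes, with 2190 at an unadjusted p under 0.05. The members' median log2 fold change moved from 0.033 to 0.0014 without pair 5 in either model, and to 0.048 at most, without pair 3. Genes whose response differed between library sets numbered 1, or 0 without the pair or with the plain step and 53 with every gene. Genes differing between library sets went from 0 to 3 with every gene, and were 0 without pair 3 (limma, 1026 at an unadjusted p under 0.05), an alternative chosen after seeing the data. The cause of these shifts was not tested.

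Over up to 26 alternatives for each named gene (4 scarce genes had no value at the minimum of 50), 28 log2 fold changes turned sign, in 9 genes. Without pair 1, Dhcr7 was −0.014 with and without the block. Without pair 3, Pmvk was −0.00058, Srebf1 0.012 and Acaca 0.0042, without pair 5 Fdft1 was −0.044 and Sc5d −0.00051, without pair 6 Acaca was 0.00069 and without pair 7 Dhcr7 was −0.029, in both models. In library set 1 alone Dhcr7 was −0.045, Scd2 0.030 and Abca1 0.075, and in set 2 alone Fdft1 was −0.039 and Sc5d −0.033. With a pair left out the highest values of these genes were 0.050 for Pmvk, 0.084 for Fdft1, 0.085 for Sc5d and 0.061 for Dhcr7, and the lowest −0.074 for Srebf1. By edgeR on 9 libraries Pmvk was −0.049, Msmo1 −0.0035, Dhcr7 −0.021 and Abca1 0.0075, and by DESeq2 Pmvk was −0.045, Dhcr7 −0.016 and Abca1 0.013. These 9 libraries hold control 3 without its ablation partner.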
